A study of Arabidopsis thaliana with 6 samples.

Results

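The phenylpropanoid and lignin biosynthesis genes described here are 10 Arabidopsis thaliana loci, chosen by locus number from the 33602 loci counted in each library: PAL1 (AT2G37040), PAL2 (AT3G53260), C4H (AT2G30490), 4CL1 (AT1G51680), HCT (AT5G48930), C3H (CYP98A3, AT2G40890), CCoAOMT1 (AT4G34050), F5H (FAH1, AT4G36220), CCR1 (AT1G15950) and CAD5 (AT4G34230). They were compared between 3 libraries of a quintuple snl1/2/3/4/5 mutant and 3 libraries of wild type, both in the Col-0 ecotype. RNA came from above-ground tissue of seedlings 11 days old, grown in 16 h light and 8 h dark and harvested 5 h after lights on (ZT5). The replicates are called biological, and the mutant is named for the SIN3-LIKE genes SNL1 to SNL5, plant counterparts of a scaffold protein that holds histone deacetylases in a corepressor complex. Library totals lay between 12622416 and 15774357 counts.

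Phenylpropanoid metabolism turns the amino acid phenylalanine into hydroxycinnamic acids and their esters. One branch reduces the activated acids to monolignols, which laccases and peroxidases couple into lignin in the walls of water-conducting and supporting cells. Other branches give sinapate esters, which shield leaves from ultraviolet light, and flavonoids. PAL, C4H and 4CL form the shared entry, HCT and C3H add the next hydroxyl group of the ring, CCoAOMT and F5H set its methoxyl pattern, and CCR and CAD carry out the last 2 reductions.

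Of the 10 genes, 8 rose in the mutant and none fell at an adjusted p below 0.05 (edgeR quasi-likelihood test, Benjamini-Hochberg adjustment over 19591 tested genes). Over all tested genes 18.3% rose and 16.5% fell, 34.8% together. All 10 genes passed the filter on low counts. The rises ranged from 1.41-fold for CCR1 to 2.38-fold for CAD5. The median log2 fold change of the 10 genes was 0.58, against 0.00 for all tested genes. HCT and F5H did not pass the test. In the same 8 genes every mutant library lay above every wild-type library, a separation seen in 25.2% of all tested genes. Summed markers of cells with secondary walls were at 219.3 to 260.9 CPM (read counts scaled to library size with TMM factors) in the mutant, against 180.8 to 189.3 CPM in wild type, and summed root markers at 2416 to 3241 CPM in the mutant, against 1225 to 1269 CPM in wild type. The gene PYK10 carried most of the root sum, which without it was 147.8 to 164.8 CPM in the mutant, against 98.7 to 116.6 CPM in wild type. The part of these markers' cells in the changes of the 10 genes was not tested.

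**Figure D1:**
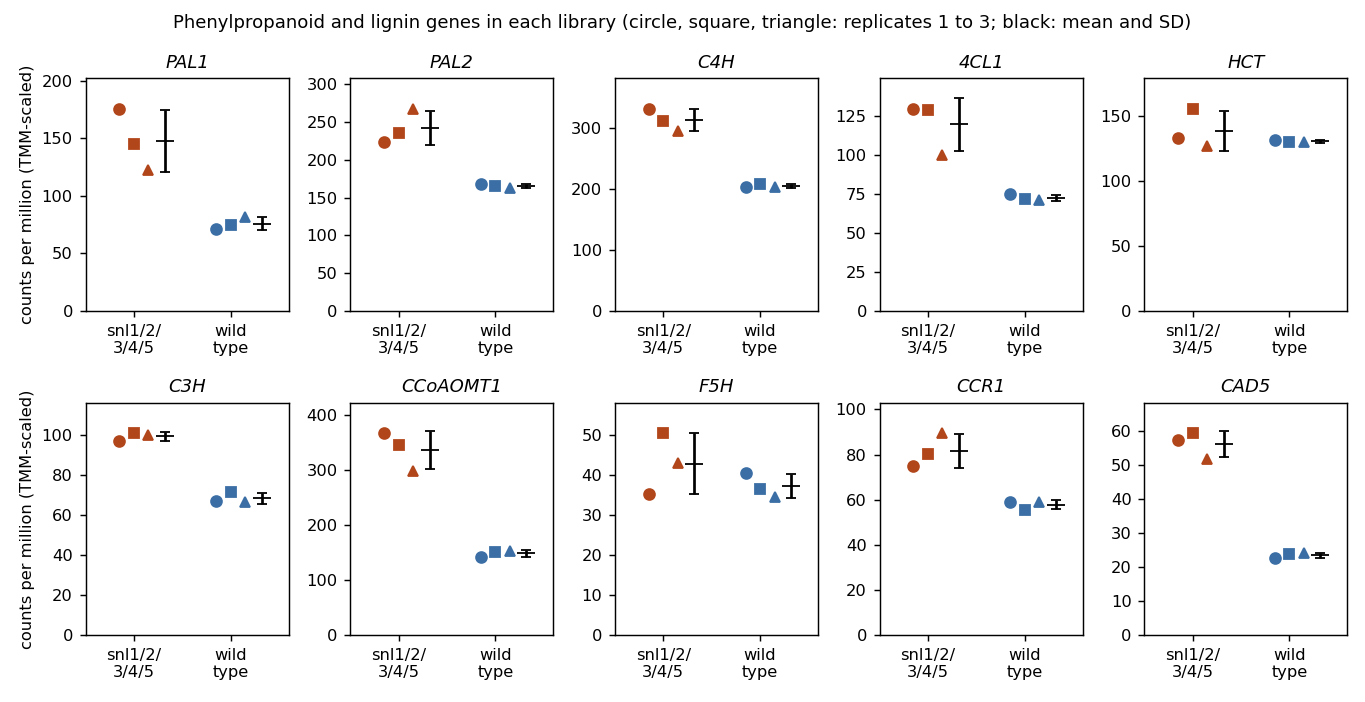
CPM (vertical axis, TMM-scaled, from 0) of the 10 genes in each library, mutant left and wild type right, with symbols for replicates 1 to 3 and black bars for the mean and SD. The mutant points stand clear of the wild-type points in 8 panels and overlap them for HCT and F5H.

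The entry into the pathway was higher in the mutant. PAL1, on chromosome 2, encodes a phenylalanine ammonia-lyase, the enzyme that removes the amino group of phenylalanine. It had 175.6, 144.7 and 122.1 CPM in mutant replicates 1 to 3, against 70.9, 74.3 and 81.8 CPM in wild-type replicates 1 to 3. The lowest mutant library stood well above the highest wild-type library, and the mutant values spread more widely, with a coefficient of variation of 18.2% in the mutant and 7.36% in wild type. The log2 fold change was 0.96 ± 0.13 (SE), or 1.95-fold (adjusted p = 0.00127).

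PAL2, on chromosome 3, encodes a second isoform of the same enzyme and was the more abundant of the pair. It had 223.2, 234.8 and 267.2 CPM in the mutant libraries, against 167.9, 164.9 and 163.0 CPM in the wild-type libraries, a rise of 1.46-fold (log2 0.55 ± 0.08 SE, adjusted p = 0.00189). The order of the mutant replicates was opposite for these isoforms: replicate 1 was the highest for PAL1 and the lowest for PAL2. Per kilobase of exon, PAL1 made up 43.7%, 37.8% and 31.1% of the reads of both isoforms in the mutant, and 29.4%, 30.7% and 33.1% in wild type. The means were 37.5% ± 6.31 and 31.1% ± 1.87 (SD, n = 3 each), and the groups overlapped (exact permutation test, 2-sided, p = 0.2, where 0.1 is the smallest p that 3 against 3 libraries allow). The share difference of 6.43 percentage points was 3.35 points without mutant replicate 1 and 9.65 points without mutant replicate 3.

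C4H, cinnamate 4-hydroxylase, is a cytochrome P450 and the first of the 3 hydroxylases among these genes. On chromosome 2, it had 331.4, 311.5 and 295.4 CPM in the mutant, against 203.3, 208.4 and 203.8 CPM in wild type. Replicates were close in both groups, with a coefficient of variation of 5.77% in the mutant and 1.36% in wild type, and the rise was 1.52-fold (log2 0.61 ± 0.07 SE, adjusted p = 0.000706). 4CL1, a 4-coumarate:CoA ligase on chromosome 1 that activates the acids as thioesters, had 129.3, 128.8 and 99.7 CPM in the mutant, against 74.7, 71.4 and 71.2 CPM in wild type. Mutant replicate 3 lay below the other mutant libraries but above all wild-type libraries, and the rise was 1.65-fold (log2 0.72 ± 0.10 SE, adjusted p = 0.00179).

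HCT, on chromosome 5, joins the activated acid to shikimate, and C3H, on chromosome 2, is the P450 that hydroxylates that ester. C3H passed the test and HCT did not. HCT had 133.5, 155.9 and 127.1 CPM in the mutant, against 131.6, 130.4 and 130.1 CPM in wild type. Mutant replicates 1 and 2 lay above the wild-type libraries and replicate 3 below them, so the groups overlapped. The log2 fold change was 0.09, with a 95% interval of −0.11 to 0.28 (adjusted p = 0.449). C3H had 97.0, 101.0 and 100.1 CPM in the mutant, against 66.9, 71.6 and 66.8 CPM in wild type, a rise of 1.45-fold (log2 0.54, interval 0.39 to 0.68, adjusted p = 0.000852). The upper bound for HCT was below the lower bound of each of the 8 genes that rose, of which the lowest was 0.31, for CCR1; the difference between genes was not tested. Within each library, where scaling plays no part, the ratio of HCT to C4H per kilobase was 0.466, 0.579 and 0.498 in the mutant, against 0.749, 0.724 and 0.739 in wild type. The ratio of C3H to C4H overlapped between the groups, at 0.323, 0.358 and 0.374 in the mutant, against 0.364, 0.380 and 0.362 in wild type. These ratios were chosen after the values were seen and are given with no test.

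CCoAOMT1, on chromosome 4, encodes the methyltransferase that turns caffeoyl-CoA into feruloyl-CoA. It had 367.8, 345.9 and 299.8 CPM in the mutant, against 142.3, 151.0 and 154.3 CPM in wild type. All mutant libraries were far above wild type, and the rise was 2.26-fold (log2 1.18 ± 0.09 SE, adjusted p = 0.000197). F5H, also on chromosome 4, is the P450 that opens the route to syringyl units and sinapate. It had 35.3, 50.6 and 43.0 CPM in the mutant, against 40.5, 36.7 and 34.7 CPM in wild type. Mutant replicate 1 lay inside the wild-type range and the other mutant libraries above it. The log2 fold change was 0.20, with an interval of −0.09 to 0.50 (adjusted p = 0.247), and F5H passed the threshold without mutant replicate 1 (adjusted p = 0.0413, against a range of 0.0413 to 0.687 over the alternatives other than the test against 1.5-fold).

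Transcript of CCR1 and CAD5, genes of the last steps, rose too. CCR1, cinnamoyl-CoA reductase on chromosome 1, had 74.9, 80.4 and 89.5 CPM in the mutant, against 58.9, 55.6 and 59.1 CPM in wild type (log2 0.50 ± 0.08 SE, adjusted p = 0.00296). Its exons overlap antisense exons over 1511 bp, those of NRAMP6 (AT1G15960) and of AT1G05213, which is not analysed here. The strand setting used in counting is not stated, so reads of overlapping loci cannot be told apart. NRAMP6 itself had 7.82 ± 0.711 CPM in the mutant and 4.81 ± 0.840 CPM in wild type (SD, n = 3 each). It passed the test in the same direction as CCR1, at 1.63-fold (adjusted p = 0.0105). CAD5, a cinnamyl alcohol dehydrogenase on chromosome 4 that makes the monolignol alcohols, had 57.3, 59.5 and 51.9 CPM in the mutant, against 22.8, 23.9 and 24.2 CPM in wild type. Its rise of 2.38-fold had the smallest adjusted p of the 10 genes (log2 1.25 ± 0.08 SE, adjusted p = 9.94e-05).

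When the test asked for a change above 1.5-fold, CCoAOMT1 and CAD5 passed, and 2.7% of all tested genes passed in that direction. These same genes are the members listed in the authors' deposited table of higher genes, which holds genes with an absolute log2 fold change of at least 1, or 3.66% of the genes its p-values imply were tested. The log2 fold changes given in the authors' deposited table were 1.17 for CCoAOMT1 and 1.24 for CAD5.

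Levels between genes were compared as CPM per kilobase of exon. For CCR1 this level is uncertain, since 1511 bp of its 1.957 kb of exon overlap antisense exons and the strand setting is not stated. In the mutant CCoAOMT1 stood first, at 218.0 ± 22.4 CPM per kb, followed by C4H at 150.1 ± 8.67 CPM per kb (SD, n = 3). PAL2 and HCT came next at 83.7 and 77.1 CPM per kb, with overlapping libraries. C3H, PAL1, 4CL1 and CCR1 followed between 52.7 and 41.7 CPM per kb, each overlapping its neighbour, then CAD5 at 34.7 and F5H at 21.6 CPM per kb. In wild type C4H and CCoAOMT1 stood together at the top, at 98.5 ± 1.34 and 96.3 ± 3.98 CPM per kb with overlapping libraries, and HCT at 72.6 CPM per kb was clear of PAL2 at 57.3 CPM per kb. C3H followed at 36.3 CPM per kb. CCR1, 4CL1 and PAL1 overlapped their neighbours between 29.6 and 25.8 CPM per kb. F5H had 18.7 CPM per kb and CAD5, at 14.6 CPM per kb, stood last in wild type, where every F5H library was above every CAD5 library. In the mutant the libraries of CAD5 were all above those of F5H.

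Among the mutant libraries, replicate 3 was the lowest for 6 of the 10 genes and the highest for 2, PAL2 and CCR1. Replicate 1 was the lowest for 4 and the highest for 4, and replicate 2 was the lowest for 0 and the highest for 4. Mutant replicate 3 also held more transcript of the mutated genes than the other mutant libraries. SNL2 had 2.32, 2.64 and 7.57 CPM in mutant replicates 1 to 3, against 94.1, 96.3 and 103.5 CPM in wild type. SNL3 had 2.55, 2.01 and 7.03 CPM in the mutant, against 76.1, 74.5 and 79.5 CPM in wild type. Transcript of each of SNL1 to SNL5 was lower in the mutant (adjusted p between 0.000172 and 0.000213). Residual transcript was higher for the other 3: relative to the wild-type mean, SNL1 was at 32.9%, 30.2% and 41.9% in mutant replicates 1 to 3, SNL4 at 13.4%, 11.7% and 23.2%, and SNL5 at 53.9%, 50.6% and 54.3%. Whether the residual transcript bears on the pathway genes was not tested. Without mutant replicate 3 the same 8 genes passed.

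The list of paralogs and other steps of the pathway held 18 loci, of which 17 were tested. Of these 11 rose, 1 fell and 5 did not pass, with a median log2 fold change of 0.55. The rises were 64.7% of the list, against 18.3% of all tested genes, and the fall 5.88%, against 16.5%. The count of rises was 9 under library totals and without mutant replicate 1 or 2 or any 1 wild-type library. It was 12 without mutant replicate 3. CCoAOMT7, a relative of CCoAOMT1, had 17.6, 21.3 and 19.3 CPM in the mutant, against 8.19, 7.75 and 8.26 CPM in wild type, and rose 2.40-fold (adjusted p = 0.000211). COMT1, which methylates the products of F5H, rose 1.49-fold to 196.0 ± 8.96 CPM in the mutant, against 131.7 ± 7.07 CPM in wild type. CSE, the esterase that releases caffeate from its shikimate ester, rose 1.29-fold, with an adjusted p of 0.00871. CYP84A4, a relative of F5H listed as F5H2, rose 1.65-fold at a low level, with 4.89 CPM in the mutant and 2.97 CPM in wild type.

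Among PAL genes, PAL4 rose 1.58-fold (adjusted p = 0.008), while PAL3 had 14.7 ± 0.697 CPM in the mutant and 15.1 ± 1.26 CPM in wild type (log2 −0.04, interval −0.26 to 0.18). The 4CL paralogs all passed. 4CL3, the form tied to flavonoid synthesis, rose 2.03-fold to 4.73 CPM in the mutant, against 2.33 CPM in wild type. 4CL2 and 4CL5 were each at about 1.44-fold, but their adjusted p of 0.0499 and 0.0416 lay at the threshold. The 4CL2 groups overlapped. The 4CL2 call was lost under scaling by DESeq2 size factors or library totals, the 1 CPM filter, limma-voom, the replicate block and without any 1 library other than mutant replicate 3 (adjusted p between 0.0025 and 0.146 over the alternatives). The 4CL5 call was lost in the default DESeq2 run, under library totals and without any 1 library other than mutant replicate 3 (0.0331 to 0.122). The share of 4CL1 in the reads per kilobase of 4CL1, 4CL2 and 4CL3 was 78.5%, 79.97% and 81.2% in the mutant, against 79.9%, 77.7% and 77.6% in wild type, and the groups overlapped (exact permutation p = 0.2, 2-sided). The difference of 1.49 percentage points ranged from 0.84 to 2.23 points when 1 library was left out.

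CCR2, a CCR gene known from defence responses, had 8.10 ± 0.855 CPM in the mutant and 7.24 ± 2.40 CPM in wild type and did not pass (log2 0.17, interval −0.36 to 0.69). CAD4, which shares the main CAD activity of stems with CAD5, rose less than CAD5. It had 99.1, 99.0 and 102.2 CPM in the mutant, against 67.4, 70.0 and 67.6 CPM in wild type (1.46-fold, adjusted p = 0.00064). The CAD5 share of this pair, per kilobase, was 39.3%, 40.2% and 36.3% in the mutant, against 27.5%, 27.7% and 28.6% in wild type. No mutant library overlapped the wild-type range, and the difference of 10.7 percentage points reached the smallest p that the design allows (exact permutation test, 2-sided, p = 0.1).

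Other members of the CAD family moved in different directions. CAD9 rose 1.95-fold to 127.5 ± 21.1 CPM in the mutant, against 65.3 ± 0.973 CPM in wild type. CAD7 rose 1.53-fold. CAD1 fell 1.19-fold (adjusted p = 0.0469), a call that was lost in the default DESeq2 run, with the replicate block and without any 1 library other than mutant replicate 3 (0.0452 to 0.144). CAD6 had 2.09, 2.83 and 0.611 CPM in the mutant, against 0.595, 0.876 and 0.455 CPM in wild type, with overlapping groups, and did not pass (adjusted p = 0.0545). Without mutant replicate 3 it passed (0.00378). CAD8 (ELI3-2) had 0 reads in all 6 libraries, a count that allows up to 3 reads in each. The NADPH reductases ATR1 and ATR2, which pass electrons to the P450 enzymes, did not pass. ATR1 had 216.9 ± 14.1 CPM in the mutant and 244.0 ± 3.76 CPM in wild type (adjusted p = 0.0961). It passed as lower without mutant replicate 3 (0.0436).

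**Figure D2:**
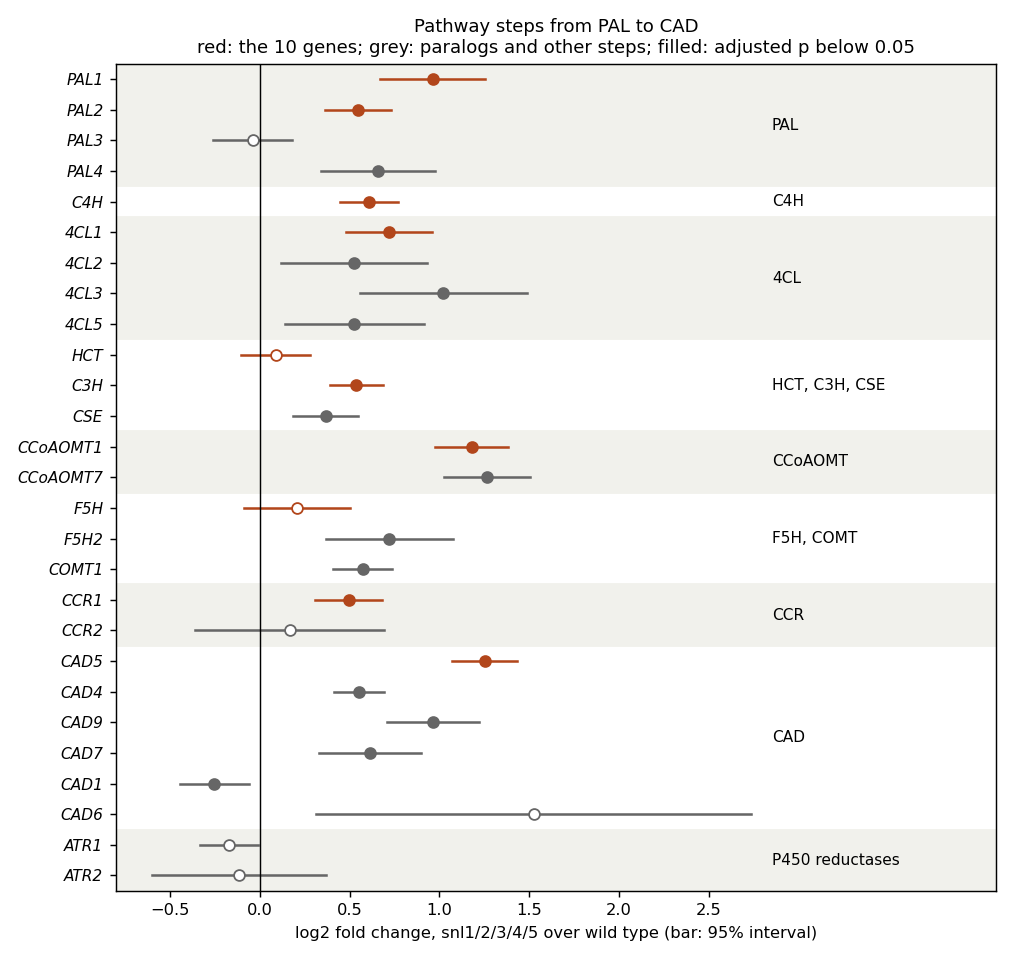
Log2 fold changes of snl1/2/3/4/5 over wild type (horizontal axis) with 95% intervals for the 10 genes in red and for their paralogs and other steps in grey, grouped by pathway step from PAL to CAD. Filled circles passed the test; HCT, F5H, PAL3 and CCR2 are among those with intervals that include 0, and CCoAOMT1, CCoAOMT7, 4CL3, CAD5 and CAD6 lie beyond a log2 fold change of 1, CAD6 without passing the test.

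**Figure D3:**
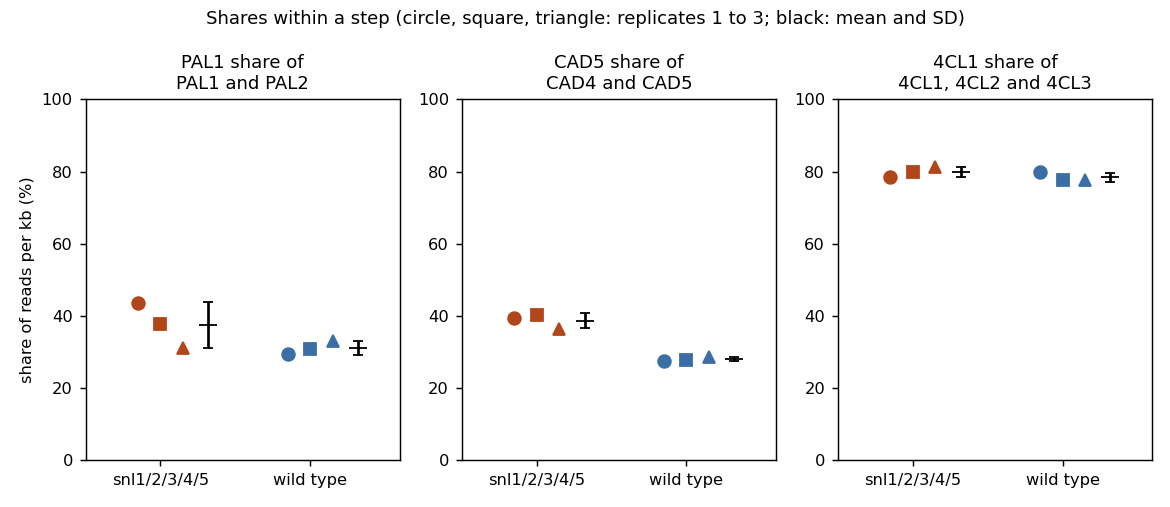
Share of reads per kilobase (vertical axis, percent) of PAL1 in PAL1 and PAL2, CAD5 in CAD4 and CAD5, and 4CL1 in 4CL1, 4CL2 and 4CL3. Each library is shown, mutant left and wild type right, with symbols for replicates 1 to 3 and black bars for the mean and SD. Other genes of these steps are not counted. The CAD5 share, at 36.3% to 40.2% in the mutant and 27.5% to 28.6% in wild type, is the panel in which the groups separate.

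Genes that supply phenylalanine were measured as 12 loci of the shikimate and arogenate route, all tested. Of these 7 rose, none fell and 5 did not pass, with a median log2 fold change of 0.32. The rises were 58.3% of the list, against 18.3% of all tested genes. The count of rises was 3 without wild-type replicate 1 (CM1, ADT3 and ADT6) and 4 without wild-type replicate 2. In those 2 fits 2290 of 19776 and 2784 of 19753 genes rose over all. ADT3, an arogenate dehydratase of the last step, had 46.2, 50.6 and 40.9 CPM in the mutant, against 23.7, 25.1 and 19.8 CPM in wild type, a rise of 2.01-fold (adjusted p = 0.000688). ADT6 and ADT1, of the same family, rose 1.66-fold and 1.49-fold, and CM1, a chorismate mutase, rose 1.30-fold. The exons of ADT6 overlap an antisense locus over 1756 bp. ADT1 no longer passed once wild-type replicate 1 or 2 was dropped (adjusted p between 0.00863 and 0.0698 over the alternatives). The locus AT1G22410, described as a class-II DAHP synthetase in the authors' deposited table, had been written into this list as DHS3 and was left out because the reference table does not pair it with that name. It is named after its values were seen and had 149.4 ± 4.42 CPM in the mutant and 64.7 ± 5.26 CPM in wild type, a 2.31-fold rise (adjusted p = 0.000104). With it 8 of 13 genes of the list rose.

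Downstream of the monolignols, 7 of 11 tested genes of polymerisation, transport and lignan formation rose, none fell and 4 did not pass (median log2 fold change 0.53). The rises were 63.6% of the list, against 18.3% of all tested genes. DIR6, a dirigent protein that steers the coupling of monolignols into lignans, rose 2.11-fold to 32.3 ± 7.36 CPM in the mutant, against 15.3 ± 2.13 CPM in wild type. PRR1, a pinoresinol reductase, rose 1.47-fold. The peroxidase gene PRX25 had 23.2, 15.2 and 8.48 CPM in the mutant, against 4.03, 4.38 and 6.44 CPM in wild type, a 3.17-fold rise with wide spread between the mutant libraries (adjusted p = 0.00783). LAC11, one of the laccases of lignin formation, rose 1.77-fold (adjusted p = 0.00806).

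Of 7 tested genes of sinapate esters and monolignol glucosides, 1 rose, none fell and 6 did not pass, and their median log2 fold change was 0.04. That share of 14.3% is near the 18.3% over all tested genes, and 2 rose and 1 fell without mutant replicate 1 or 3. The gene that rose was UGT72E2, a glucosyltransferase of monolignols, with 45.4, 35.6 and 21.9 CPM in the mutant, against 8.06, 11.7 and 9.17 CPM in wild type (3.56-fold, adjusted p = 0.00155). In the list of coumarin and flavonoid genes 3 of 5 tested (60%) rose, against 18.3% over all tested genes, and none fell. The rises were all flavonoid genes. TT4, chalcone synthase, rose 1.97-fold, TT5, chalcone isomerase, 1.82-fold, and FLS1, a flavonol synthase, 2.53-fold. The coumarin gene F6'H1 and the flavonoid gene TT7, named after their values were seen, did not pass, with overlapping groups. F6'H1 was at a log2 fold change of 0.75 (adjusted p = 0.107) and TT7 at −0.37 (adjusted p = 0.255). F3H was listed at 0 reads in all 6 libraries. Its exons lie over 1415 bp against an antisense locus, so this 0 is not read as a level.

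Among the 16 tested regulators of the pathway there were 5 rises and 3 falls, and 8 genes did not pass, with a median log2 fold change of 0.31. The falls, 18.8% of the list, were near the 16.5% of all tested genes that fell, and the rises were 31.2% against 18.3%. Only MYB4 was still a rise in the fit without wild-type replicate 1, 2 regulators rose and 1 fell without mutant replicate 2, and 3 rose in the default DESeq2 run. The 3 that fell were KFB20, KFB01 and KFB50, Kelch-repeat F-box genes whose products mark PAL proteins for breakdown. KFB20 had 271.2, 241.2 and 263.6 CPM in the mutant, against 365.2, 359.6 and 381.7 CPM in wild type, and fell 1.43-fold (adjusted p = 0.00166). KFB01 had 45.9, 38.6 and 42.3 CPM in the mutant, against 54.3, 65.1 and 52.2 CPM in wild type (1.35-fold lower, adjusted p = 0.0137). KFB50 had 215.0, 206.6 and 227.1 CPM in the mutant, against 269.4, 247.2 and 259.9 CPM in wild type (1.20-fold lower, adjusted p = 0.0225). The groups did not overlap in any of the 3 genes, a separation in this direction seen in 24.6% of all tested genes. The KFB01 call was lost without mutant replicate 2 (0.00482 to 0.0582 over the alternatives), and the KFB50 call without mutant replicate 2 or wild-type replicate 1 or 3 (0.0133 to 0.107). All exons of KFB50 overlap antisense loci, over 1540 bp, while KFB20 and KFB01 overlap none. The fourth of this group, KFB39, was listed at 0 reads in all 6 libraries and also lies wholly against an antisense locus.

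The regulators that rose were transcription factor genes. MYB4, a repressor of C4H and sinapate ester synthesis, rose 1.52-fold, to 8.91 ± 0.559 CPM in the mutant, against 5.84 ± 0.488 CPM in wild type (adjusted p = 0.00669). Its relative MYB7 was at 1.45-fold with overlapping groups, and its call was lost under library totals, with the replicate block and without mutant replicate 1 or 2 or wild-type replicate 1 or 2 (adjusted p between 0.0108 and 0.135). MYB43 and MYB63, which belong to sets of lignin activators, rose 1.80-fold and 1.87-fold, and VND6, a NAC factor of vessel formation, rose 2.20-fold. The other listed MYB genes, VND7 and KNAT7 are named after their values were seen. MYB20, MYB32, MYB46, MYB83, MYB85 and KNAT7 did not pass, and MYB42, MYB58, MYB103 and VND7 were below the low-count filter. VND7 had 0.589 CPM in the mutant and 0.702 CPM in wild type, with overlapping groups. MYB20 was at a log2 fold change of −0.41 (adjusted p = 0.086) and passed as lower without mutant replicate 3 (0.0272). MYB63 and VND6 stayed low, at 1.73 and 1.33 CPM in the mutant, against 0.926 and 0.603 CPM in wild type. The MYB63 call was lost in the default DESeq2 run and without mutant replicate 2 or wild-type replicate 1 or 3 (0.0188 to 0.111), the VND6 call in that run and without wild-type replicate 1 (0.0113 to 0.0827), and the MYB43 call when mutant replicate 2 or wild-type replicate 1 was left out (0.00334 to 0.0702). The secondary wall master genes NST1, NST2 and NST3 had 2, 0 and 0 reads summed over the mutant libraries and 0 reads in wild type.

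**Figure D4:**
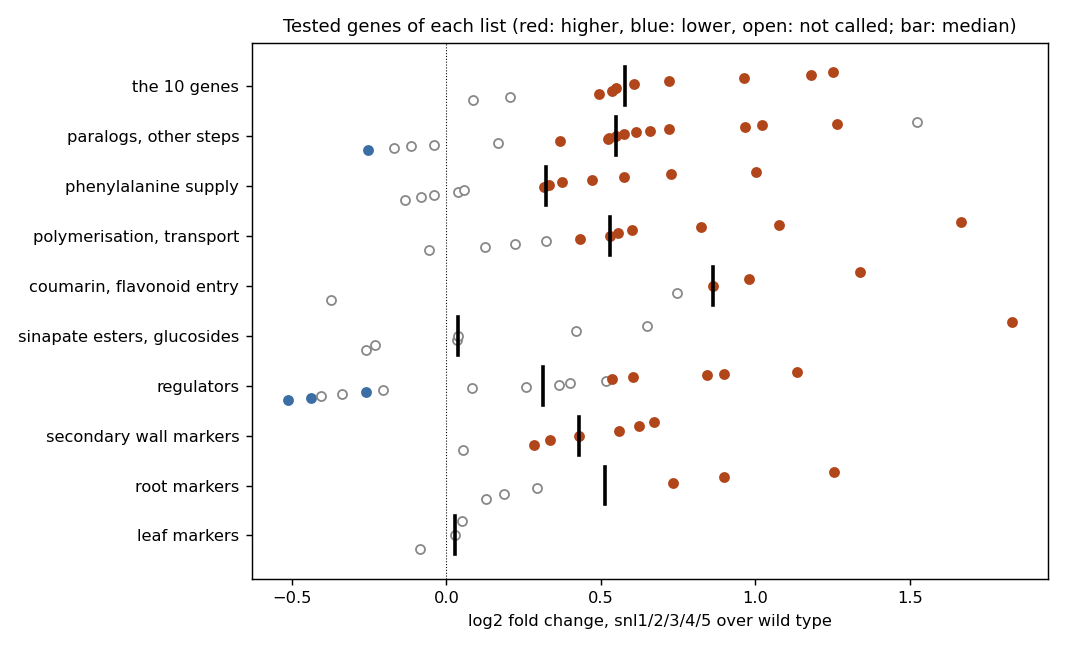
Log2 fold changes of snl1/2/3/4/5 over wild type (horizontal axis) for the tested genes of each list, red where higher, blue where lower and open where the test was not passed, with a black bar at the median of each list. Medians are 0.58 for the 10 genes, 0.55 for paralogs and other steps, 0.32 for phenylalanine supply and 0.04 for sinapate esters and glucosides.

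Markers of cell types that the tissue could hold were counted in the same way. Of 7 genes that mark cells with secondary walls, 6 (85.7%) rose and none fell (median log2 fold change 0.43), against 18.3% rising over all tested genes. But 2 rose, CESA4 and IRX10, in the fit without wild-type replicate 1, where 2290 of 19776 genes rose over all. Dropping any other library except mutant replicate 3 left 2 or 3 rises. CESA4, a cellulose synthase of the secondary wall, rose 1.59-fold, the xylan gene IRX10 1.54-fold, IRX9 1.47-fold and the xylem protease gene XCP2 1.26-fold. CESA7 and XCP1 lay near the threshold (adjusted p = 0.0409 and 0.0462). Over the alternatives other than the test against 1.5-fold the adjusted p reached 0.126 for CESA7, 0.148 for XCP1, 0.0841 for IRX9 and 0.0527 for XCP2. Of 7 root markers 6 were tested, 3 (50%) rose and none fell. PYK10, a glucosidase gene of roots and hypocotyls, had 2704 ± 410 CPM in the mutant and 1133 ± 27.6 CPM in wild type. The water channel gene TIP2;3 rose 1.66-fold and the iron transporter gene IRT1 1.86-fold. CASP1, which marks the root endodermis and was named after its values were seen, did not pass, with 26.4 ± 3.69 CPM in the mutant and 23.2 ± 1.86 CPM in wild type. NRT2.1 had 0 reads in each mutant library, against 2, 1 and 1 reads in wild type.

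Of 6 floral organ markers 2 were tested and 1 rose, PI, with 17.5 ± 6.52 CPM in the mutant and 2.79 ± 0.757 CPM in wild type. The floral list summed to 21.0 to 35.2 CPM in the mutant, against 7.797 to 8.72 CPM in wild type, and AP1 had 0 reads in all libraries other than mutant replicate 1. The 3 leaf markers did not pass, and summed to 30677 to 36976 CPM in the mutant, against 31925 to 34925 CPM in wild type. In whole aerial tissue a change in the share of a cell type and a change in RNA per cell cannot be told apart.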

How the data were processed

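Read counts were deposited by the authors as whole numbers for each locus and library, with no normalization, and all tests started from these counts. The submitters' processing notes name TAIR10 and the tools cutadapt 1.4, TopHat, HTSeq and edgeR, without their roles, and nothing read here states whether counting used strand. The authors' deposited tables of higher and lower genes give, for each gene, log2 fold change, log2 mean CPM and p-value, raw and adjusted, from a test that is not named. Their 12 columns of per-library CPM were not used. Their raw counts equalled those of the per-library files in 2350 of 2350 gene and group combinations.

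Genes were kept with filterByExpr (minimum count 10, minimum total 15), scaled with TMM (factors 0.966 to 1.02) and tested with edgeR 4.0.16 (glmQLFit and glmQLFTest with a group term) in R 4.3.3, at an adjusted p of 0.05. CPM uses TMM-scaled totals, SE is the log2 fold change over the square root of F, and 95% intervals use the total degrees of freedom of the fit. Alternatives used limma 3.58.1 (voom), DESeq2 1.42.0, other scalings and filters, a fit blocked on replicate number, a 1.5-fold threshold test and fits without each library.

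Symbols, exon lengths and overlaps come from RefSeq's TAIR10.1, which named 32835 of 33602 loci; no coordinates or sequences are printed, since the notes name TAIR10. No list gene had a copy at 95% identity over 100 bp (BLAST+ 2.17.0). The members and lists were chosen with earlier results of these data known, and 3 list entries without a matching name were dropped. Named genes were the 10 members, the paralogs and other steps, SNL1 to SNL5, and up to 4 called genes with at least 1 CPM of each other list (8 for regulators) by adjusted p. Other genes are named beside a count of 0, as an overlapping neighbour, where a list's count rests on them or as chosen after their values were seen. How the plants were divided among replicates is not stated, so p-values measure the spread between these libraries.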

Additional observations from a re-analysis of the deposited data

How the results depend on the processing

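The 8 genes that rose did so under 14 alternatives; the exception was the test against 1.5-fold, which left 2 of the 10 genes and, over all genes, 528 higher and 229 lower, and left 6 higher and 0 lower in the 6 pathway lists together. The main counts were 3587 higher (18.3%) and 3224 lower (16.5%) of 19591 tested genes, and 34 higher and 4 lower of 68 tested genes in the pathway lists. These lists are paralogs and other steps, phenylalanine supply, sinapate esters and glucosides, polymerisation and transport, regulators, and coumarin and flavonoid genes. With 1 library left out, 8 to 9 of the 10 genes were higher, with 2290 to 3806 higher and 1757 to 3511 lower genes over all, and 23 to 38 higher and 1 to 7 lower in the pathway lists. The lower counts were 1757 over all genes when wild-type replicate 1 was left out and 1894 when mutant replicate 2 was, and in the pathway lists 1 without mutant replicate 2, 7 without mutant replicate 3 and 2 without wild-type replicate 1 or 3. The higher count over all genes was 2290 without wild-type replicate 1. Among the 10 genes and the paralogs and other steps, some that did not pass changed sign when 1 library was left out. They were HCT (log2 fold change −0.003 to 0.15 over all alternatives), PAL3 (−0.0991 to 0.0245), CCR2 (−0.0736 to 0.39) and ATR2 (−0.31 to 0.21). Some genes of the other lists that did not pass also had ranges that crossed 0. The causes were not tested. Replicate numbers are shared between the groups, but deviations of same-numbered libraries correlated at 0.0136, 0.148 and −0.0561, not all over 0.1, so the numbers were not taken to pair the libraries; 1 of 3 mutant libraries correlated best with its own number. The replicate block gave 8 of the 10 genes higher, 3106 higher and 2767 lower over all genes, 33 higher and 3 lower in the pathway lists, and share differences of 6.43, 10.7 and 1.49 points. Genes under about 1 CPM rest on few reads, which limits the precision of their values.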
